A study of Drosophila melanogaster with 12 samples.

Results

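In larvae of Drosophila melanogaster 96 h after egg laying, eye-antennal imaginal discs were divided into an eye part and an antenna part that were sequenced apart, and the transcripts that differ between these territories are described here. For each gene the difference was the log2 of (eye FPKM + 1) over (antenna FPKM + 1), FPKM being mapped fragments scaled by the length of the transcript and by sequencing depth. Of 10893 genes in the deposited table, 385 were set aside because their symbols start with snoRNA:, sncRNA: or mir-. Of the other 10508 genes, 7277 reached at least 5 FPKM in the higher part and were compared. Each part is 1 library, so no difference at 96 h alone has a replicate check or a p, and "higher" below means at least 2-fold on this scale with at least 5 FPKM in the higher part. Positive differences are higher in the eye part.

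The study holds 12 libraries of polyadenylated RNA, 1 per group: whole larvae and whole eye-antennal discs at 72, 96 and 120 h, discs at the white prepupal stage, discs still attached to the mouthparts at 72 h, and eye and antenna parts at 96 and 120 h. Larvae of every group belonged to the strain w[11-18], which carries a mutation of the eye colour gene white, grew on yeast-glucose medium at 25 °C and were staged to within 1 h for the groups with an age in hours. The labels do not say how many animals were pooled or where the disc was cut. In such bulk libraries fewer cells of a type and less RNA per cell cannot be told apart.

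The eye-antennal disc is 1 epithelial sac that forms the compound eye, the ocelli, the antenna, the maxillary palp and most of the head capsule. The eye field is set up by the retinal determination genes, a network of transcription factors headed by the Pax6 genes ey and toy. During the last larval instar the morphogenetic furrow, a front of differentiation, sweeps across that field from its posterior edge, and photoreceptors and then cone cells form behind it. The antennal field is patterned by Dll, hth and other homeobox genes, and the antenna is laid out there as rings of segments that take their adult form in the pupa.

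More genes were higher in the antenna part, 478 of 7277 (6.57%), than in the eye part, 330 (4.53%). Without genes at least 2-fold above the whole disc in the larva at 96 h, the order turned over, with 227 and 266. Over all 7277 genes, 39 differed by at least 8-fold in the eye direction and 78 in the antenna direction. For at least 16-fold the counts were 10 and 16. Among genes with transcripts of at least 1000 nt, the counts were 28 and 37 at 8-fold, and 4 and 4 at 16-fold. The median difference over the 7277 genes was 0.04. In the part where they were higher, eye-higher genes had a median of 19.8 FPKM, and in the other part 4.38 FPKM. For antenna-higher genes these medians were 23.3 and 4.95 FPKM. Few genes were close to absent from the other part: 48 eye-higher and 54 antenna-higher genes stood under 1 FPKM in the other one. None of the 10 that were listed at 0 there had an annotated transcript of 1000 nt or more. Genes with transcripts under 1000 nt passed the 2-fold limit more often, 19.1% of 1147 against 9.24% of 5715 longer genes. Of 415 genes with no annotated transcript, 14.7% passed. Just inside the limit stood CG3253 at 1.003 in the eye direction and CG11353 at -1.002 in the antenna direction, and just outside it Jupiter at 0.99 and CG31373 at -0.99995. At the 5 FPKM limit, CG1835 at 5.004 and Ufsp1 at 5.02 FPKM were kept, and CG4313 at 4.998 and Cyp6w1 at 4.99 FPKM were not.

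**Figure D1:**
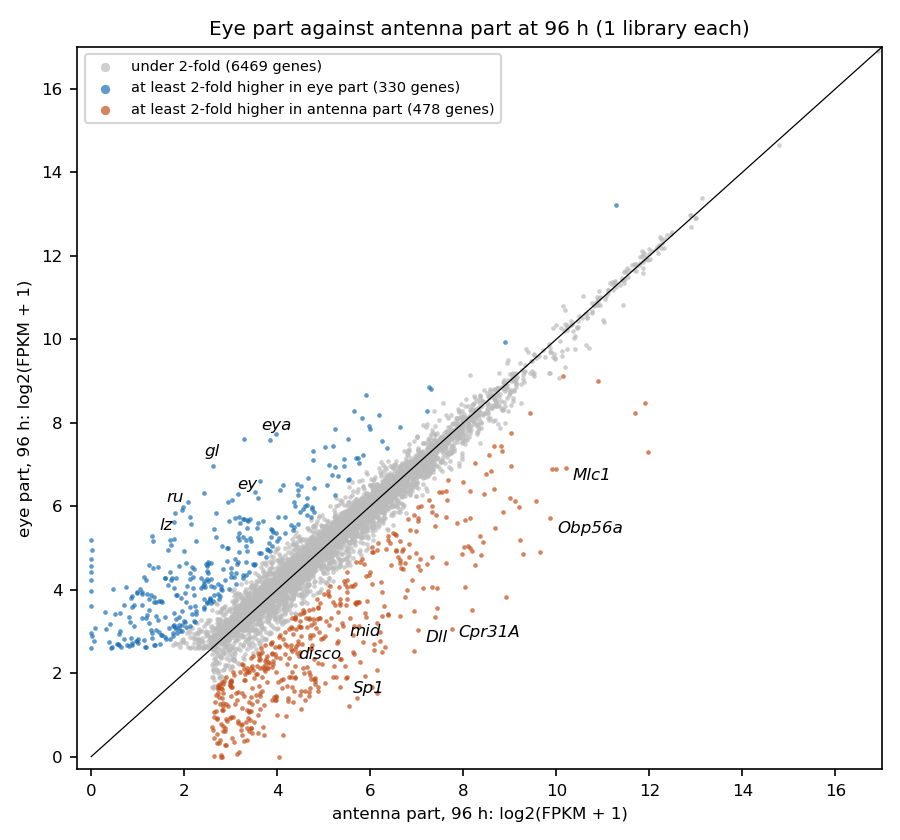
Each point is 1 of 7277 genes, with its level in the antenna part on the horizontal axis and in the eye part on the vertical axis, both as log2(FPKM + 1) at 96 h in 1 library each. The 330 genes higher in the eye part (blue) lie above the diagonal and the 478 higher in the antenna part (orange) below it, and most genes lie close to it. The genes gl, eya, ey, ru and lz stand far above the line, and Dll, mid, Sp1, disco, Cpr31A, Obp56a and Mlc1 far below it.

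The whole disc at 96 h, a separate library, can be set beside a mixture of the parts. With an eye weight of 65%, which was itself fitted to this whole disc over genes with a 4-fold or larger difference, it deviated from that mixture by a median of 0.13 on the log2 scale, and by more than 2-fold for 2.87% of genes (1.12% of those with transcripts of at least 1000 nt). At an eye weight of 0.5 the median deviation was 0.133, against 0.129 at the fitted weight, so this median says little about the weight. The parts at 120 h are another pair of libraries, with 458 eye-higher (6.4%) and 294 antenna-higher genes (4.11%) of 7158. Eye, antenna and whole disc at both ages were also fitted together in limma with terms for tissue and age, a test that bears on both ages at once. With p adjusted by Benjamini-Hochberg over 9081 genes and a threshold of 0.05, 159 genes (1.75%) passed in the eye direction and 126 (1.39%) in the antenna direction. Without the small RNA symbols, a fit of 8756 genes added after seeing the data, the counts were 255 and 192. The fit has 2 residual degrees of freedom and hangs on the eye libraries: without the eye part of 96 h it called 1 and 0 genes and without that of 120 h 0 and 1, whereas it called 303 and 110 without the antenna part of 96 h and 175 and 195 without that of 120 h. Because the 96 h libraries enter this fit, its calls are not independent of the differences at 96 h. For genes picked by those differences, here and below, passing limma is no separate support.

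Retinal determination genes had the highest median of the 33 gene lists examined. All of these lists were chosen with earlier results of these libraries known, so their counts and medians are no independent evidence of direction. Only members with at least 5 FPKM in the higher part could pass. Over all 7277 genes at that level 4.53% were eye-higher and 6.57% antenna-higher. Of 12 retinal determination genes measured, 9 were higher in the eye part, 1 in the antenna part, and their median difference was 2.20, against 0.03 over all 10508 genes. The phosphatase and coactivator gene eya stood at 191 FPKM in the eye part, 13.4 in the antenna part and 94.0 in the whole disc. At 120 h its levels were 121 and 11.6 FPKM. The difference was 3.74 at 96 h and 3.28 at 120 h, and limma gave 3.51 ± 0.22 (SE) over both ages with an adjusted p of 0.00527.

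The homeobox gene so, whose product works in a complex with that of eya, stood at 67.1 and 6.63 FPKM in eye and antenna part at 96 h and 53.7 and 5.62 FPKM at 120 h. For ey these levels were 70.0 and 7.19 FPKM, then 40.4 and 3.99 FPKM. Both libraries of the eye part thus lay above both of the antenna part for eya, so and ey. The other Pax6 gene, toy, was less unequal: it had the highest level of the list in the eye part, 231 FPKM, but also 62.3 FPKM in the antenna part, and a difference of 1.87. The homeobox gene Optix, a relative of so, differed by 2.62 at 96 h and 1.56 at 120 h, and dac, a nuclear factor that acts with eya and so, by 2.54 and 2.79. These 6 genes, eya, so, ey, Optix, dac and toy, passed limma over both ages with adjusted p between 0.00417 and 0.0328.

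Another 3 members were higher in the eye part at 96 h and not at 120 h. The Pax gene eyg stood at 17.4 FPKM in the eye part against 4.67 in the antenna part at 96 h, and at 14.8 and 26.3 FPKM at 120 h, so that the order turned over, without passing the 2-fold limit at 120 h. Its neighbour and paralog toe was at 17.8 and 2.27 FPKM and then nearly level, at 20.4 and 19.1 FPKM. The zinc finger gene tio differed by 1.17 and 0.14, and its paralog tsh fell just short of the limit at 96 h with 0.96. None of these 4 passed limma, with adjusted p between 0.302 and 0.883. The exception in direction was hth, a homeobox gene used both ahead of the furrow and in the antenna, at 149 FPKM in the eye part against 372 in the antenna part. The homeobox gene hbn was under 1 FPKM in both parts.

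Genes of photoreceptors and cone cells that passed the 2-fold limit all lay on the eye side. Of 20 measured, 10 were eye-higher and none antenna-higher, with a median difference of 1.86, and 10 passed limma in the eye direction. The zinc finger gene gl, needed for photoreceptor differentiation, was at 123 FPKM in the eye part, 5.17 in the antenna part and 68.7 in the whole disc. Its levels at 120 h were 126 and 5.03 FPKM, almost the same as at 96 h. The difference was 4.33 and 4.40, with 4.36 ± 0.18 (SE) over both ages in limma and an adjusted p of 0.00395.

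The homeobox gene ro, which acts in the photoreceptors R2 and R5, stood at 34.6 against 1.49 FPKM at 96 h and 25.9 against 4.26 FPKM at 120 h. The Runx gene lz, which primes cells recruited later, was at 36.3 against 2.41 FPKM, then 56.0 against 6.76 FPKM. Both were well separated at both ages. The nuclear receptor gene svp differed by 2.69 and 3.15, the adaptor gene phyl by 2.82 and 1.95, and the receptor tyrosine kinase gene sev, which specifies R7, by 2.30 and 3.66. The ligand of that receptor, boss, was near zero in the antenna part (0.00611 FPKM at 96 h and 0.0183 at 120 h) and at 2.996 and 4.09 FPKM in the eye part, below the 5 FPKM limit. The neuronal RNA-binding gene elav stood at 52.4 against 16.8 FPKM. sens, a zinc finger gene of R8, was at 13.8 against 1.29 FPKM at 96 h, but at 7.78 against 5.18 at 120 h, and did not pass limma (adjusted p of 0.321).

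The cone cell genes pros and sv were still under 3 FPKM in the eye part at 96 h, with 2.79 and 2.59 FPKM, and higher at 120 h, with 7.87 and 12.6 FPKM. The paralogs salm and salr, ttk, sina and oc differed by under 2-fold at 96 h, between -0.58 and 0.02. At 120 h the list held 13 eye-higher genes, among them pros, sv and oc.

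**Figure D2:**
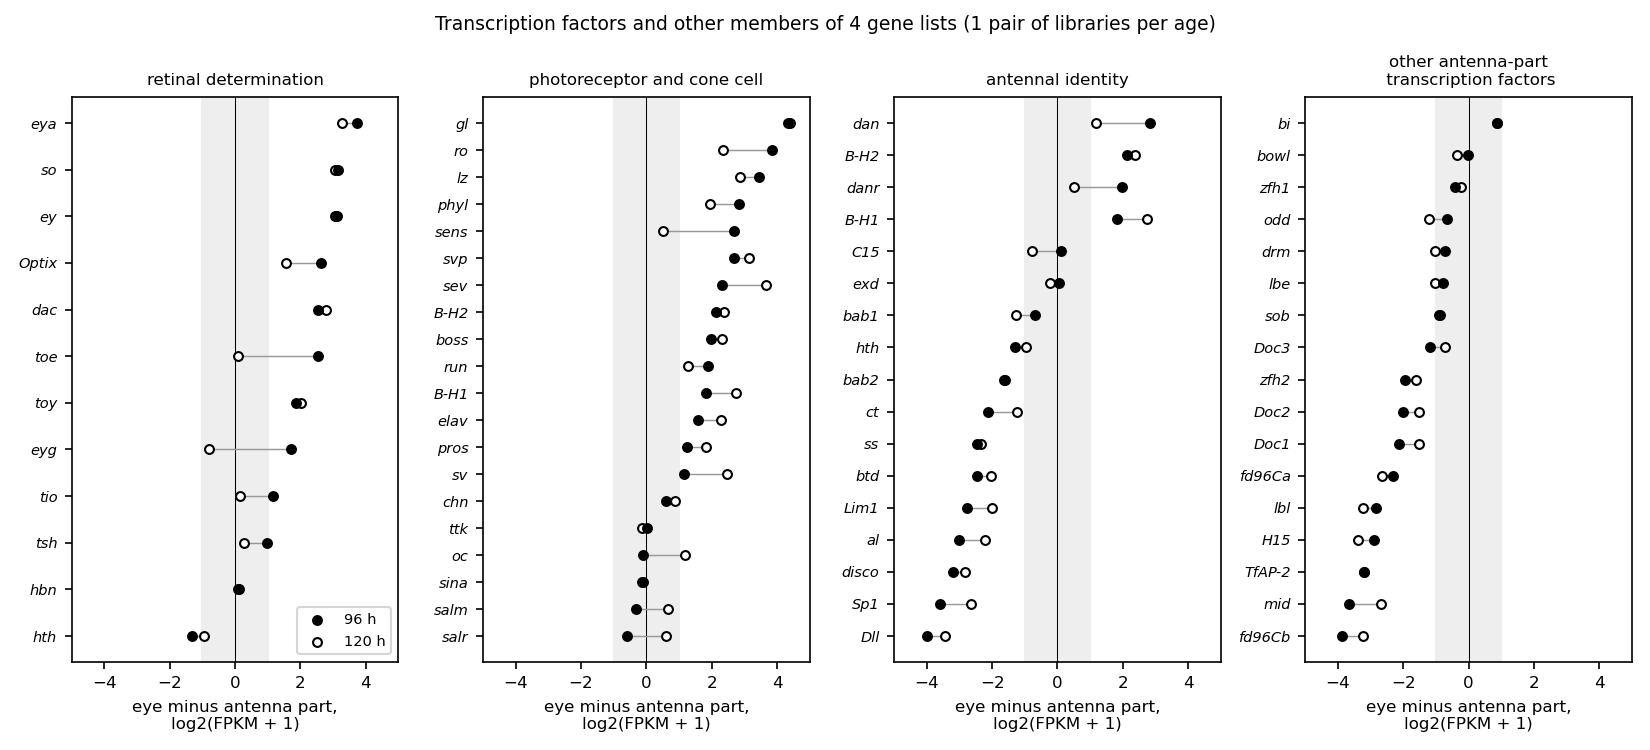
Differences between eye and antenna part (horizontal axis, log2(FPKM + 1), positive where the eye part is higher) are shown for the members of 4 gene lists, with 1 filled point per gene for 96 h, 1 open point for 120 h and the range under 2-fold shaded. The open and filled points lie close together for gl, so, ey, ss and TfAP-2. They lie apart for toe, eyg, sens, dan and danr, which were nearer to 0, or below it, at 120 h.

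The furrow list was more even than the retinal list. Of 20 furrow signals and proneural genes, 5 were eye-higher and none antenna-higher, with a median of 0.54. The proneural gene ato, which founds R8 cells in the furrow and the chordotonal organ of the antenna, was at 129.9 FPKM in the eye part against 52.8 in the antenna part. The signal genes hh and dpp differed by under 2-fold: hh stood at 31.4 and 36.2 FPKM and dpp at 21.2 and 26.4 FPKM. Bulk levels do not show where in each part these genes were expressed. None of 12 members of the Dpp and Hedgehog pathways passed the 2-fold limit. Of 7 JAK/STAT genes 4 reached 5 FPKM, and none of these passed. The JAK/STAT ligand gene upd1 was under 5 FPKM with 1.03 and 4.37 FPKM.

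EGF receptor signalling, which recruits photoreceptors after R8, differed at the level of particular members. Of 17 EGF and FGF genes, 5 were eye-higher and none antenna-higher, and the same 5 passed limma. The intramembrane protease gene ru, which releases the ligand spi, was at 56.4 against 2.51 FPKM and differed by 4.03 at 96 h and 4.15 at 120 h. The secreted inhibitor aos was at 50.8 against 8.71 FPKM. For the Ets factors of the pathway, the repressor aop and the activator pnt, the differences were 1.69 and 1.62. The FGF ligand ths was at 10.4 against 1.35 FPKM. The receptor Egfr (0.57), the main ligand spi (0.63), the ligand vn (-0.12) and the inhibitor sty (0.09) all differed by under 2-fold.

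Among 11 Notch target genes of the E(spl) complex, 4 were higher in the eye part against 1 in the antenna part, with a median of 0.22. E(spl)mgamma-HLH, a repressor of the bHLH class, was at 311 FPKM against 49.1, and E(spl)mdelta-HLH at 174 against 35.7 FPKM. The member with the highest level, E(spl)malpha-BFM, was at 693 and 490.4 FPKM, a difference of 0.50. Members of the complex were thus unequal in how far they differed. E(spl)m5-HLH went the other way, with 3.38 FPKM in the eye part against 11.4 in the antenna part. Notch itself was even, with a difference of 0.22.

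Of 17 neuronal genes measured, 9 were eye-higher and none antenna-higher, with a median of 1.42, and 6 passed limma. The zinc finger gene scrt was at 67.0 against 3.25 FPKM at 96 h and 85.8 against 4.32 FPKM at 120 h. Appl, the fly homolog of the amyloid precursor protein, was at 55.7 against 5.38 FPKM, and nerfin-1, a zinc finger gene of new neurons, at 14.2 against 0.974 FPKM. The microtubule protein gene futsch and the ankyrin gene Ank2 differed by 2.45 and 2.91. Among genes of the synapse, brp stood at 4.33, Syt1 at 3.25 and cpx at 2.91 FPKM in the eye part at 96 h, and at 17.4, 10.8 and 16.1 FPKM there at 120 h. Their antenna-part levels were 0.593, 0.340 and 1.39 FPKM at 96 h, and 0.350, 0.101 and 0.333 FPKM at 120 h. Snap25 did not share this direction, at 1.25 against 2.46 FPKM at 96 h and 2.47 against 2.56 FPKM at 120 h. The synaptic vesicle gene nSyb was eye-higher at 96 h, with 15.7 against 5.23 FPKM, and the syntaxin gene Syx1A was at 30.7 against 44.5 FPKM. All 12 neuronal genes past the limit at 120 h were eye-higher.

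Of 14 axon guidance and adhesion genes, 5 were eye-higher, none antenna-higher, and these 5 also passed limma. They were gogo, a receptor of photoreceptor axons, at 13.4 against 0.832 FPKM, the immunoglobulin-type adhesion genes rst (2.38) and kirre (1.89), the neural adhesion gene Nrt (2.34) and the planar polarity cadherin stan (1.02). The polarity receptor gene fz was even, at 24.7 and 24.5 FPKM.

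Glial genes were split. The glial homeobox gene repo was at 9.81 against 2.42 FPKM and loco, a regulator of G protein signalling in glia, at 42.7 against 13.7 FPKM, both in the eye direction. bnb (113 against 383 FPKM) and the glutamine synthetase gene Gs2 (10.02 against 38.6 FPKM) were higher in the antenna part. Of 9 brain neuroblast genes 3 reached 5 FPKM. Among these only nerfin-1, which the neuronal list also holds, was higher in either part. The neuroblast factor wor was under 1 FPKM in both.

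Genes of the finished photoreceptor were mostly low at this age. Of 11 phototransduction genes, 3 reached 5 FPKM and 1 was eye-higher: inaC, the eye-specific protein kinase C, at 8.09 against 0.322 FPKM, and 20.4 against 0.701 FPKM at 120 h. The rhodopsin genes Rh5 and Rh6, which are expressed in the larval eye, were at 1.06 and 1.10 FPKM in the eye part and 2.63 and 3.61 FPKM in the antenna part, too low to enter the comparison. Of 12 eye pigment genes 1 was eye-higher, cn, the kynurenine 3-monooxygenase of brown pigment synthesis, at 15.7 against 0.687 FPKM. The transporter gene w, mutated in this strain, was under 1 FPKM in both parts.

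**Figure D3:**
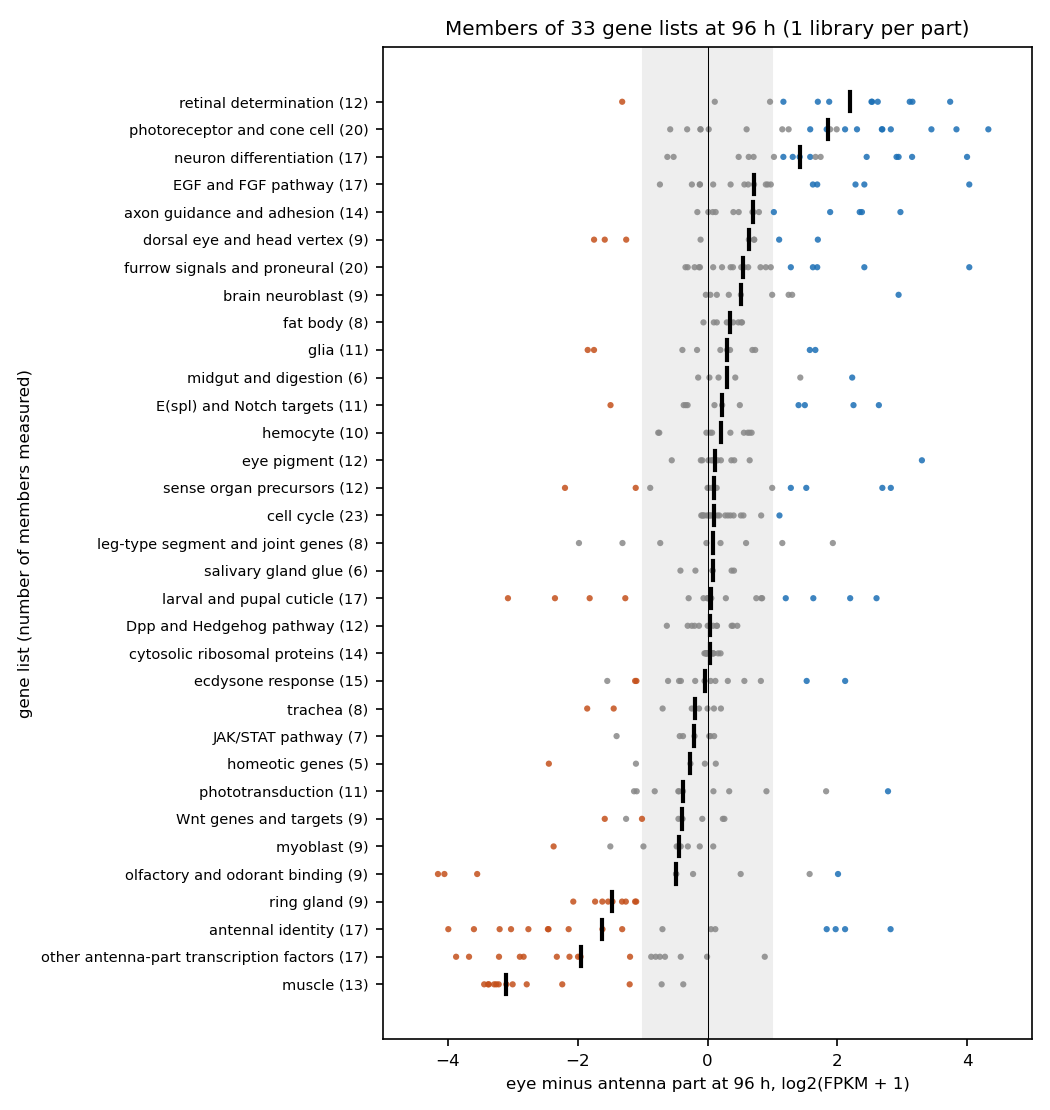
Each row is 1 of 33 gene lists, with 1 point per measured member at its difference between eye and antenna part at 96 h (horizontal axis, log2(FPKM + 1)), blue or orange where it is at least 2-fold higher in the eye or antenna part with 5 FPKM, and the median as a black bar. Retinal determination genes (median 2.20) lie at one end and muscle genes (median -3.10) at the other, and the 14 ribosomal protein genes lie in a narrow band around 0.

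The 20 genes with the largest eye-higher differences and transcripts of at least 1000 nt ran from 3.18 to 4.33, and the eye part was also the higher one for all 20 at 120 h. Besides gl, ru, scrt, ro, eya, lz and cn they held twit, which encodes a Ly6-type membrane protein, at 195 against 8.73 FPKM at 96 h and 139 against 8.59 FPKM at 120 h. Also among them were the zinc finger gene peb, active in photoreceptors, at 48.0 against 2.45 FPKM, the matrix metalloprotease gene Mmp2 at 209.8 against 14.8 FPKM, and Cralbp, which encodes a retinal-binding protein of the CRALBP family, at 52.7 against 3.35 FPKM. The kinesin and JNK adaptor gene Aplip1 differed by 3.33, the sulfotransferase gene St2 by 3.50 and qtc, a coiled-coil protein gene, by 3.53. The others were CG34377, CG5653, superdeath, CG15765, CG11382 and SP2353. All but St2 and CG11382 passed limma, with adjusted p of 0.0905 and 0.0670 for these 2. The 96 h values that chose these 20 genes also enter that fit. Of the 20, 10 overlap another gene in the reference annotation, Mmp2 the most with 10 overlapping genes, so their levels may include reads of those neighbours.

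The antenna part was led by a different set of regulators, but not by these alone. Of 17 antennal identity genes, 10 were higher in the antenna part and 4 in the eye part, with a median of -1.62. Dll, the homeobox gene of distal appendages, stood at 7.19 FPKM in the eye part, 129.5 in the antenna part and 57.8 in the whole disc, and at 6.38 and 80.02 FPKM at 120 h. Its difference was -3.995 and -3.46, with -3.73 ± 0.21 (SE) and an adjusted p of 0.00447 in limma. The defining markers of both parts, eya, so and ey for the eye and Dll for the antenna, thus ran in the direction of the labels.

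The buttonhead-type zinc finger gene Sp1, which acts with its neighbour btd in appendage growth, was at 2.68 against 43.6 FPKM, and btd at 0.718 against 8.45 FPKM. The zinc finger gene disco was at 4.45 against 49.2 FPKM, the homeobox gene al of the distal tip at 4.08 against 40.5 FPKM, and Lim1 at 2.86 against 25.2 FPKM. The antennal selector gene ss, a bHLH-PAS factor, was at 4.05 against 26.6 FPKM. All 6 were far higher in the antenna part, and their order of eye and antenna part was the same at 120 h. The homeobox gene ct and the BTB gene bab2 differed by -2.14 and -1.62. The cofactor gene exd, whose product acts with that of hth, was even at 151 and 145 FPKM, and hth itself differed by -1.32 at 96 h and -0.96 at 120 h, with an adjusted p of 0.0699 in limma.

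The 4 members of the antennal list that went the other way are also used in the eye. The paralogs dan and danr, which act in antennal identity and in eye development, stood at 79.5 and 87.9 FPKM in the eye part against 10.4 and 21.6 FPKM at 96 h. At 120 h they were nearer to each other, 52.2 and 51.2 against 22.4 and 36.1 FPKM, and neither passed limma (adjusted p of 0.137 and 0.266). The homeobox paralogs B-H1 and B-H2, of photoreceptors R1 and R6 and of the distal antenna, differed by 1.84 and 2.12 in the eye direction and both passed limma.

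A further list of 17 transcription factors had 10 antenna-higher members and no eye-higher one, with a median of -1.96. The forkhead genes fd96Cb and fd96Ca were at 10.7 against 171 FPKM and 1.09 against 9.45 FPKM. The T-box genes mid (-3.68), H15 (-2.89), Doc1 (-2.13), Doc2 (-1.996) and Doc3 (-1.19), the homeobox gene lbl (-2.83) and TfAP-2 (-3.21), an AP-2 factor of leg and antenna joints, lay in the same direction. The pairs mid and H15, and the Doc genes, are neighbours on their chromosomes.

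The homeotic gene Dfd, which acts in the maxillary region, was at 2.14 against 16.1 FPKM at 96 h and 5.57 against 28.8 FPKM at 120 h, and passed limma with an adjusted p of 0.00798. Scr, of the labial segment, stood at 0.278 and 1.75 FPKM at 96 h, and at 0.0992 and 7.43 FPKM at 120 h, where it passed the 2-fold limit in the antenna direction. Antp, of the thorax, was under 1 FPKM in both parts at both ages.

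Among 9 Wnt genes and targets measured, 2 were antenna-higher: Wnt6 at 8.91 against 28.7 FPKM and Wnt2 at 2.46 against 5.97 FPKM. The Wnt gene wg was not found by symbol and is not covered. Of 9 genes of the dorsal eye and head vertex, the Iroquois gene caup was eye-higher (1.10) along with eyg, while Wnt6 and the homeobox paralogs en (-1.25) and inv (-1.75) were antenna-higher. Wnt6 and inv passed limma. Sense organ genes were split between the parts: the ubiquitin ligase gene neur, phyl, sens and ato were eye-higher, and the proneural genes cato (0.368 against 5.27 FPKM) and ac (10.01 against 22.7 FPKM) antenna-higher. At 120 h ac was at 40.6 and 33.9 FPKM, no longer past the limit, and cato at 1.85 and 16.97 FPKM. The proneural gene amos, of olfactory organs, was listed at 0 in both parts at 96 h. Of 8 leg-type segment genes 4 reached 5 FPKM, and none of these passed the rule. The POU gene nub was below that limit, at 0.250 and 3.94 FPKM.

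Structural muscle genes had the lowest median of the 33 lists, -3.10. Of 13 measured, 11 were higher in the antenna part and none in the eye part. Their summed level was 870 FPKM in the eye part, 5860 in the antenna part and 2595 in the whole disc at 96 h, 343 and 676 FPKM in the parts at 120 h, and 19146 FPKM in the whole larva at 96 h. In the discs at 72 h the sum was 8370 FPKM, and 14607 with the mouthparts attached. The myosin light chain genes Mlc1 and Mlc2 were at 120.0 against 1181 FPKM and 68.5 against 754 FPKM, the troponin T gene up at 118 against 1019.9 FPKM and the projectin gene bt at 2.72 against 37.5 FPKM. At 120 h Mlc2 stood at 0.426 and 9.91 FPKM. 8 of the list were antenna-higher then and 6 passed limma, 0.00549 being the adjusted p of up. Of 9 myoblast genes 4 reached 5 FPKM, and 1 of these was antenna-higher. It was twi, the mesoderm bHLH gene, at 0.256 against 5.50 FPKM, while the muscle factor Mef2 was at 9.90 and 14.2 FPKM.

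All 9 ring gland genes measured were higher in the antenna part at 96 h, with a median of -1.47. The ring gland makes ecdysone and juvenile hormone and is not part of the disc. The ecdysone synthesis gene spok stood at 123 FPKM in the eye part, 521 in the antenna part and 369.9 in the whole disc, sad at 107 against 359 FPKM, and jhamt, of juvenile hormone synthesis, at 16.6 against 49.9 FPKM. Akh, the adipokinetic hormone gene, was at 69.9 against 153 FPKM. The list summed to 443 FPKM in the eye part, 1405 in the antenna part, and 340 and 515 FPKM at 120 h, and none of the 9 passed limma. Of 8 tracheal genes 2 were antenna-higher, the POU gene vvl (-1.85) and tnc (-1.45), with trh, the defining factor, under 1 FPKM in both parts. Of 10 hemocyte, 8 fat body and 6 glue genes, 8, 6 and 3 reached 5 FPKM, and none of these passed the limit. Fat body genes summed to 458 FPKM in the eye part against 338 in the antenna part, both above the 165 FPKM of the whole disc. The part of these other tissues in the differences between eye and antenna part was not tested.

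Cuticle and odorant-binding protein genes were also among the antenna-higher genes. The top 20 antenna-higher genes with transcripts of at least 1000 nt ran from -4.70 to -3.26. They held the cuticle protein genes Cpr31A (7.30 against 214 FPKM), Cpr100A (2.72 against 44.1 FPKM) and Cpr67B (2.37 against 31.7 FPKM), and CG11131 (35.3 against 594 FPKM). They also held Jhbp14, named for juvenile hormone binding, at 1.89 against 69.5 FPKM, the muscle genes Mlc1, Mlc2, bt and Prm, the regulators Dll, fd96Cb, mid and Sp1, and the mitochondrial phosphate carrier gene Mpcp1. The others were CG9759, CG9297, GV1, CG32564, CG13705 and CG5177. At 120 h 9 of these 20 were antenna-higher again, and Cpr31A was at 3.62 and 2.33 FPKM then. In limma, which the 96 h values that chose these genes also enter, 7 of the 20 passed.

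Cpr31A was at 1328 FPKM in the disc at 72 h and 2474 with mouthparts, and CG11131 at 1382 and 3836 FPKM. Of the 20, 9 were at least 2-fold higher in the disc with mouthparts than without at 72 h, 15 were at least 2-fold lower in the whole disc at 96 h than at 72 h, and 13 were at least 2-fold higher in the whole larva than in the whole disc at 96 h. On the eye side none of the 20 was larva-higher, 2 were higher with mouthparts, and 18 were at least 2-fold higher in the disc at 96 h than at 72 h. Over all 7277 genes, 3.41% were higher with mouthparts and 9.18% larva-higher. From 72 to 96 h, 5.68% of all 7277 were at least 2-fold lower in the disc and 4.88% higher.

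Of 9 olfactory and odorant-binding genes, 3 were antenna-higher, namely Obp56a (51.3 against 931 FPKM), Obp56d (27.4 against 332 FPKM) and Obp56e (9.13 against 167 FPKM), and all 3 passed limma. Their whole-disc levels of 124, 59.1 and 13.3 FPKM lay much nearer to those of the eye part. Obp44a went the other way at 290.4 against 71.3 FPKM. Obp56a, Obp56d and Obp56e were not limited to the antenna part. In the whole larva at 96 h they stood at 341, 1355 and 27.9 FPKM. In the 72 h disc they were at 2702, 239 and 49.2 FPKM, and with mouthparts at 4690, 633 and 145 FPKM. In the cuticle list of 17, 4 were eye-higher, led by Lcp65Af (228 against 36.7 FPKM), and 4 antenna-higher, led by Pcp (2.34 against 27.2 FPKM).

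Among 15 ecdysone response genes, ImpE3 (2.12) and ImpE2 (1.53) were eye-higher at 96 h and ImpE1 (-1.10) and the BTB gene chinmo (-1.12), a temporal identity gene, antenna-higher. ImpE2 was at 124 and 42.3 FPKM at 96 h, and at 4582 and 3135 FPKM at 120 h, where no member of the list passed the limit. The receptor genes EcR and usp were even, with -0.44 and 0.12. Of 23 cell cycle genes, which lay between -0.10 and 1.11, only dap, the cyclin-dependent kinase inhibitor, was eye-higher (98.2 against 45.0 FPKM, difference 1.11, adjusted p in limma 0.0316), while PCNA (404 and 381 FPKM), CycE (0.04) and stg (0.83) stayed under 2-fold. All 14 cytosolic ribosomal protein genes of the list lay between -0.05 and 0.20.

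Many of the differences at 96 h were present in the libraries of 120 h. Of the 330 genes 196 (59.4%) were eye-higher at 120 h, which is 42.8% of the 458 eye-higher genes of that age. Of the 478 genes 174 (36.4%) were antenna-higher again, or 59.2% of the 294. Over all 7277 genes the shares that were eye-higher and antenna-higher at 120 h were 4.48% and 3.49%. The sign was the same for 278 of 330 (84.2%) and 393 of 478 genes (82.2%), against 4523 of all 7277 (62.2%), and 18 genes passed the limit in opposite directions. A level under 5 FPKM in both parts at 120 h was found for 58 eye-higher and 167 antenna-higher genes (34.9%), against 392 of all 7277 (5.39%). In limma 137 of the 330 passed in the eye direction and 112 of the 478 in the antenna direction, but the 96 h values that chose these genes enter that fit, so nothing is read from these counts.

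The same sets differed in the remaining libraries, which the 2-fold rule at 96 h did not use. In the whole larva at 96 h, 251 antenna-higher genes (52.5%) were at least 2-fold above the whole disc, against 64 eye-higher genes (19.4%) and 9.18% of all genes. Genes at least 2-fold below it in the larva were 190 of the eye-higher set (57.6%) and 116 of the antenna-higher set (24.3%), against 57.5%. Between 72 and 96 h the whole disc level was at least 2-fold higher at 96 h for 149 eye-higher genes (45.2%) and 55 antenna-higher genes (11.5%), against 4.88%, and at least 2-fold lower for 43 (13.0%) and 221 (46.2%), against 5.68%. With mouthparts attached at 72 h, 109 antenna-higher genes (22.8%) and 49 eye-higher genes (14.8%) were at least 2-fold higher than without, against 3.41%. In the 72 h disc 143 eye-higher genes (43.3%) and 71 antenna-higher genes (14.9%) stood under 5 FPKM, against 419 of all 7277 (5.76%).

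Leaving out genes at least 2-fold above the disc in the larva left 266 eye-higher genes, of which 181 (68.0%) were eye-higher at 120 h, and 227 antenna-higher genes, of which 97 (42.7%) were antenna-higher again. The authors' deposited table also gives each gene a cluster number from 1 to 11. Of the eye-higher genes 179 (54.2%) carried cluster 2, against 7.21% of all 7277, and 56 (16.97%) cluster 9, against 7.08%. Of the antenna-higher genes 204 (42.7%) carried cluster 7, against 20.7% of all 7277, 116 (24.3%) cluster 5, against 5.59%, and 94 (19.7%) cluster 6, against 8.77%. How the clusters were made is not given in the sources used here. The same eye and antenna libraries may have entered them, so these shares may not be independent of the differences at 96 h.

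**Figure D4:**
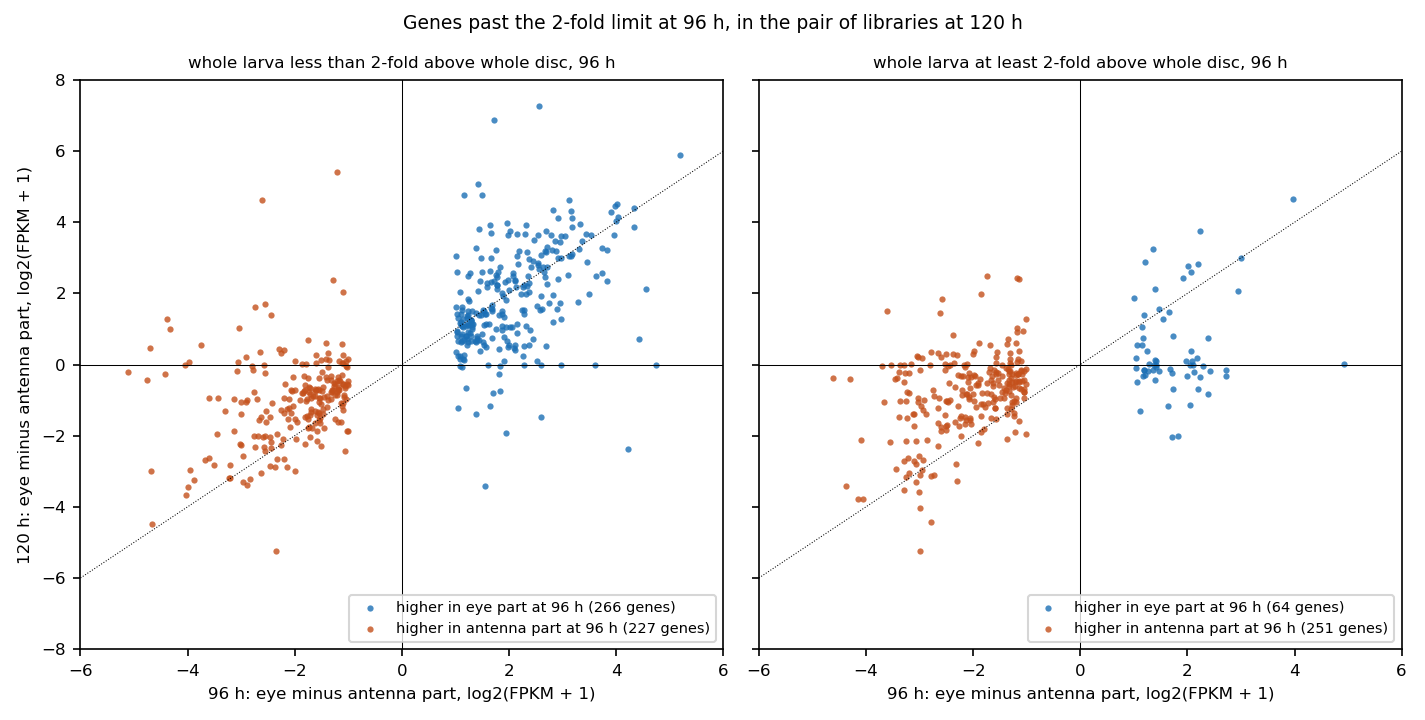
Each point is 1 gene past the 2-fold limit at 96 h, with its difference between eye and antenna part at 96 h on the horizontal axis and at 120 h on the vertical axis, both on the log2(FPKM + 1) scale, and a dotted line where the differences are equal. Among genes less than 2-fold above the disc in the larva (left), 266 eye-higher genes lie mostly in the upper right, and many of the 251 antenna-higher genes that are larva-higher (right) lie near 0 at 120 h.

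**Figure D5:**
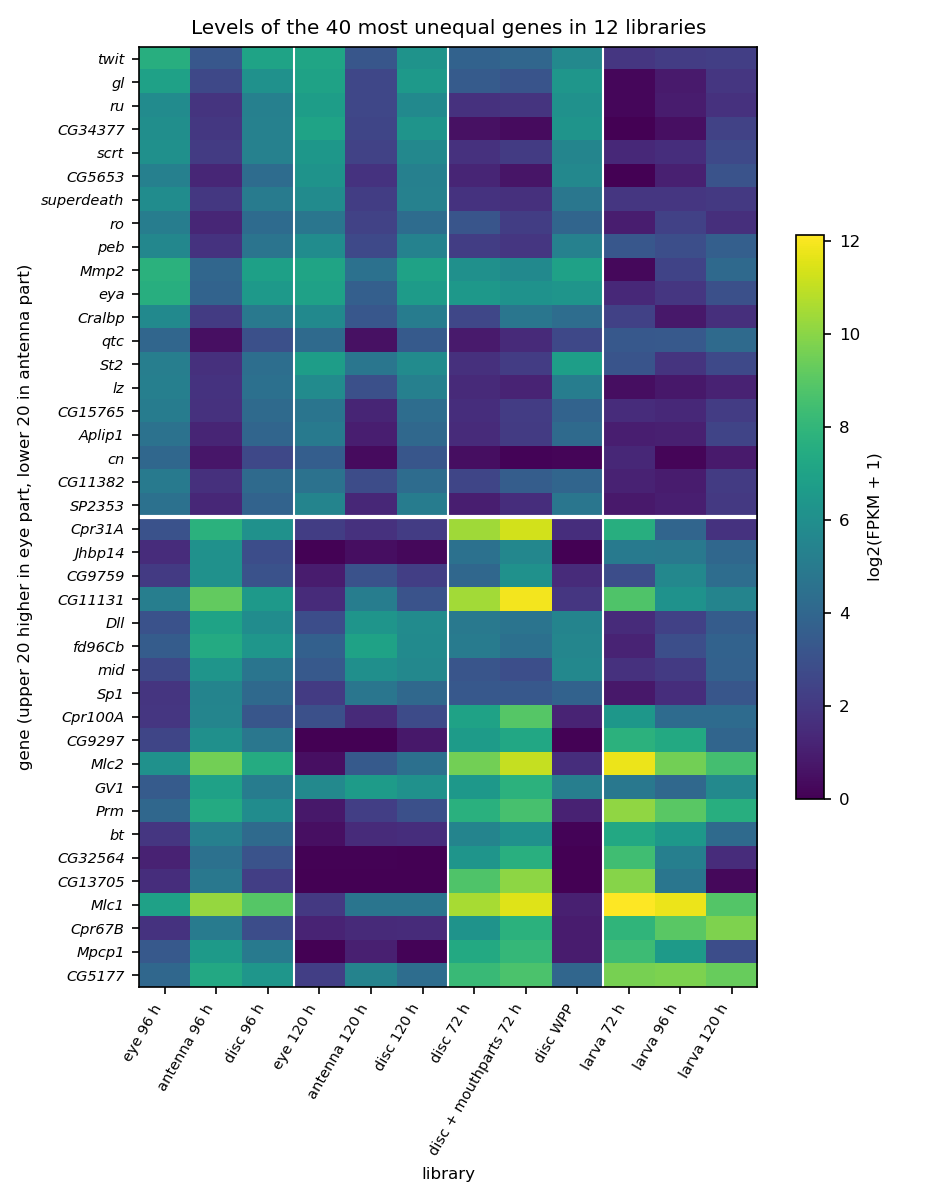
Colour gives log2(FPKM + 1) of the 40 genes with the largest differences at 96 h (rows) in all 12 libraries (columns, 1 library each). The upper 20 are mostly high in the eye parts and late discs and low in larvae, and many of the lower 20, such as Cpr31A, CG11131 and Mlc1, are highest in the 72 h discs or the larvae, while Dll, fd96Cb, mid and Sp1 are not.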

How the data were processed

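The authors deposited 1 table of values per gene and library, read here as FPKM, because the header names no unit and Cufflinks is named per the submitters' processing notes together with TopHat and the build dm3. For versions, annotation and strand setting nothing is given in the sources used here. The number of reads is unknown. RNA was selected for poly(A) and primed with random hexamers, per the labels' protocols. Columns were assigned to groups by their names and the labels.

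Symbols and transcript lengths came from a reference annotation and were found for 10308 identifiers (94.6%). The 585 others could not be screened by symbol. No coordinates or sequences are given, and promoter motifs were not analysed here. A pseudocount of 1 was added. No test exists for 1 library against 1. limma 3.58.1 in R 4.3.3 (lmFit, eBayes with trend and robust) was run on log2(FPKM + 1) of 6 libraries, keeping genes that reached 1 FPKM in 2 or more of them, with terms for tissue and age, two-sided p and Benjamini-Hochberg adjustment over 9081 genes. Its p-values set the difference between eye and antenna part against the tissue-by-age deviation in these libraries. That deviation serves as the error, and it may be technical or hold differences that change with age. On simulated data for this comparison, with 9081 genes, it recovered 92% of 50 genes changed by 1 on the log2 scale and 100% of those changed by 2 to 4, with 7 false calls. The simulation gave every gene the same normal spread and changed the eye libraries of both ages by the same amount. Real genes differ in spread and between ages, so these shares do not give the recovery or the false calls of the real fit. Other steps used pandas 2.3.3, numpy 2.4.6 and Python 3.11.15.

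Named genes were the 20 with the largest difference in each direction among those with a longest transcript of at least 1000 nt, members of 33 lists, and genes next to the limits. List members were given as examples by size of difference, and those added to show levels or roles were picked after their values were seen. Members and lists were chosen with earlier results of these data known. Of 451 list entries, 397 were matched to a gene by symbol. Genes without a match, such as wg, Dl, ninaE, trp, Mhc and phm, are not described. Alternatives were other pseudocounts, filters, scaling and leaving out libraries.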

Additional observations from a re-analysis of the deposited data

Results flagged for a closer look

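These 6 genes with transcripts of at least 1000 nt passed the 2-fold limit in opposite directions at 96 and 120 h, a difference between the ages that was not tested, since each age has 1 pair of libraries. Cpr49Ac, a cuticle protein gene, differed by 1.71 at 96 h and -2.03 at 120 h, with 16.6 and 4.38 FPKM in eye and antenna part and then 42.1 and 174 FPKM. Another cuticle gene, Cpr100A, went the other way, from -3.60 to 1.50. CG9021 differed by 2.04 and -1.13, CG17211 by 1.38 and -1.38, Mettl5, which encodes an RNA methyltransferase, by 1.65 and -1.16, and CG32447 by 1.04 and -1.21.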

How the results depend on the processing

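The counts of 330 eye-higher and 478 antenna-higher genes stayed within 1.5 times under pseudocounts of 0.1 and 5 and under median-ratio scaling. When low values were kept, the eye-higher count was 539 and the count found again at 120 h 579, against 370. With at least 20 FPKM in the higher part the counts were 165 eye-higher, 263 antenna-higher and 183 found again at 120 h. With transcripts of at least 1000 nt, 297 genes were antenna-higher. The limma counts of 159 and 126 became 105 and 74 with no filter on low values, and 255 and 192 without small RNA symbols, a fit added after seeing the data. Leaving out 1 library at a time gave 0 to 303 eye-higher and 0 to 195 antenna-higher genes in limma. Without the eye part of 96 h, where 923 genes had an unadjusted p under 0.05, or that of 120 h, where 879 did, at most 1 gene passed in a direction, and the lone eye library was then taken to vary like the others. The causes were not tested. Of 305 named differences 63 moved by more than 0.19, the robust SD of the whole disc's deviations from the mixture, at a pseudocount of 0.1 and 111 at 5. Under median-ratio scaling 8 changed sign, the largest of them 0.031 in size, and none past the 2-fold limit did. No paired analysis was possible because every group has 1 library, so no replicate number pairs the parts.

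Limits: read depth is unknown from FPKM, so no counting interval is given, and an exact 0 says only that a gene is listed at 0. The labels do not state how many animals a library held. Genes with short transcripts, overlapping genes and near-identical copies have less certain values.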

Other observations

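Some digestive genes were eye-higher at 96 h and low in the whole disc. The serine protease gene Jon65Aiv stood at 194 FPKM in the eye part, 45.0 in the antenna part and 6.09 in the whole disc at 96 h, at 0.725 and 0.601 FPKM in the parts at 120 h, and at 17252 FPKM in the whole larva at 96 h. The lysozyme gene LysS was at 169 against 31.6 FPKM, with 3.26 FPKM in the whole disc. Of 6 midgut genes in the list for that tissue, only LysB reached 5 FPKM, and it was eye-higher, at 9.02 against 1.14 FPKM. All 4 Jonah protease genes that reached 5 FPKM were eye-higher at 96 h and none at 120 h. Single values of these families are uncertain because their copies are alike. Their whole-disc levels lay below both parts, and the part of other tissue in this was not tested.

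Differing genes followed one another along the chromosomes in places. Only genes with at least 5 FPKM in the higher part and a position in the reference annotation were put in order. Genes between them that did not meet this were skipped, so members of a run need not be adjacent. Runs of at least 3 consecutive genes in this order, all past the 2-fold limit in 1 direction, numbered 19 on the antenna side (68 genes) and 9 on the eye side (30 genes). The longest antenna run held 6 genes (CG30195, CG34446, CG34445, CG3746, CG30196 and CG43326). Others held the 4 odorant-binding genes Obp56a, Obp56d, Obp56e and Obp56h, the cuticle genes Ccp84Ag, Ccp84Af and Ccp84Ad, the Doc genes, and GstD9, GstD1 and GstD3. Among eye runs were Pgant8, comm2, comm and CG6244, in which comm and comm2 encode regulators of axon guidance receptor sorting, and Obp83g with the Osiris genes Osi24, Osi2 and Osi4. No random placement of genes was compared.

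Gene families taken by symbol, a choice made after their values were seen, were described by counts alone. Of 100 cuticle protein genes of the Cpr, Ccp84, Lcp and Twdl families, 39 reached 5 FPKM, 23 were antenna-higher and 6 eye-higher. Of 28 Obp genes 11 reached 5 FPKM, with 6 antenna-higher and 2 eye-higher. None of 69 mitochondrial ribosomal protein genes passed the limit in either direction.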
